A study of Mus musculus with 10 samples.

Results

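The mitochondrial ribosomal protein genes were taken as all entries of the deposited expression table whose symbol begins with Mrpl or Mrps and a number. The rule found 76 genes among 23258 gene symbols, 47 with a large-subunit name and 29 with a small-subunit name. Expression was measured by RNA sequencing of retinal ganglion cells, which carry the retina's output to the brain, sorted for green fluorescence at postnatal day 6 from C57BL/6 mice. Both groups carried the Hb9-GFP reporter, which labels a subset of ganglion cells, and the groups are wild-type and Satb1-/- by their labels. Satb1 is a chromatin organizer. Each genotype had 5 libraries from different litters, each made from about 1000 sorted cells.

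Mitochondrial ribosomes translate the few mRNAs encoded by mitochondrial DNA, all of which specify subunits of the respiratory chain and ATP synthase. Their RNA comes from the mitochondrial genome, while every protein of the large and small subunit is encoded in the nucleus and imported, so the nuclear genes described here supply a complex whose parts are needed together. Ganglion cells have long unmyelinated axon segments inside the eye and depend heavily on oxidative phosphorylation. Mrpl47 encodes the mitochondrial form of a bacterial protein (uL29m) that sits beside the polypeptide exit site of the large subunit. It was singled out beforehand for its genotype difference in these same 10 libraries, so its difference is given here as a description with no test, and the question is whether the other members differed with it.

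All values are TPM, a unit of transcript abundance that accounts for transcript length and sums to the same total in each library, and differences are knockout minus wild-type on the log2(TPM + 1) scale, which understates the change of low genes. Libraries varied widely. The number of genes at 1 TPM or more ran from 10073 to 12555. The first principal component (32.9% of the variance) set wild-type 5, knockout 4 and knockout 5 apart, and the second (13.0%) set wild-type 4 apart. In the first 3 of these, the share of cytosolic ribosomal protein transcripts was 12.2% to 13.8%, and in the other 7 libraries it was 3.90% to 8.05%. Over both genotypes, the 12 ganglion cell markers summed to 12267 to 99463 TPM. Nefl alone was at 6422 to 94381 TPM, so this sum says little of the other markers. By contrast, 12 rod markers summed to 15.7 to 601 TPM and 11 microglia markers to 14.7 to 3263 TPM. Satb1 itself spanned 38.6 to 414 TPM (wild-type) and 24.1 to 170 TPM (knockout), ranges that overlap; which part of the gene the allele lacks is not stated in the labels, so this level does not check them.

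Promoter sequence is shown for 3 members whose levels are described below, because Mrpl47 shares its start region with another gene and the other 2 had among the lowest knockout levels relative to wild-type. The sequences are the 250 bases before the RefSeq start (build GRCm38.p6, the coordinates of mm10), read 5′ to 3′ in the direction of the member. Capitals mark CCGGAAG, the binding word of ETS-family factors, on either strand, or, in Mrpl47, where that word is missing, the same word without its first letter, which was chosen after the sequence was seen. The windows are chr3:32736756-32737005 (minus strand) for Mrpl47, chr2:130563507-130563756 (plus strand) for Mrps26 and chr13:99344536-99344785 (plus strand) for Mrps27.
Mrpl47: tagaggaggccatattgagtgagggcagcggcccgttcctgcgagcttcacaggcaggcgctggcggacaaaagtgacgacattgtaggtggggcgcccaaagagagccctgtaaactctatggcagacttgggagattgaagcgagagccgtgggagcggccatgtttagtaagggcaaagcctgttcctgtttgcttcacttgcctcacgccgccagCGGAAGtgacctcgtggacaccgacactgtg
Mrps26: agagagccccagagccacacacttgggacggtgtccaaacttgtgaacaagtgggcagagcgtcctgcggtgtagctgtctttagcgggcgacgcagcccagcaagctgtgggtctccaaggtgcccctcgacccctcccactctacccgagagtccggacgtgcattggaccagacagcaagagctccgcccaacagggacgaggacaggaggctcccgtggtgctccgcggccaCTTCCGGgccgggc
Mrps27: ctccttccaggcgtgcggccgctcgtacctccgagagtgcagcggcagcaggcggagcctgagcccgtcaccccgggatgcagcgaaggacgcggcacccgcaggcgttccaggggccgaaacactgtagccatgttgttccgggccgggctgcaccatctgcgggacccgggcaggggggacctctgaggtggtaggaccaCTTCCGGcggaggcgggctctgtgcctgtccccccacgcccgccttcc
The marked word begins 31 bases before the start of Mrpl47, 14 before that of Mrps26 and 48 before that of Mrps27. The shorter word CGGAAG was found in this 250-base window in 30 of 67 members (44.8%) and in 19.2% of all 17492 protein-coding genes with a promoter entry.

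Mrpl47 (ENSMUSG00000037531.8, chromosome 3, 32725397 to 32737605, minus strand) was lower in every knockout library than in every wild-type library. Its level was 31.7, 58.4, 28.02, 57.4 and 15.2 TPM across wild-type 1 to 5, with 2.84, 5.11, 3.25, 9.30 and 2.60 TPM across knockout 1 to 5. The lowest wild-type value and the highest knockout value both belonged to libraries set apart on the first component. Wild-type libraries averaged 38.1 ± 19.0 TPM and knockout libraries 4.62 ± 2.80 TPM (SD over 5 libraries each), a difference of -2.76 (SE 0.71, 95% interval -4.24 to -1.29). This interval, and the rescaled values below, come from the libraries in which Mrpl47 was chosen. They take no account of that choice and are no test. Within the family it ranked from position 20 to 45 by level in wild-type libraries and from 62 to 71 in knockout libraries, out of 76. As a share of the summed TPM of the family it made up 0.384% to 1.40% in wild-type and 0.0521% to 0.151% in knockout, a measure that the scaling of the libraries does not affect. The lowest share was that of knockout 1, where Mrps15 at 2426 TPM raised the sum, and the next was 0.0768% in knockout 5. The genotypes were also apart after median centring and after quantile normalization. Leaving out wild-type 5 and knockout 4 and 5, the difference was -3.199. Markers of direction-selective ganglion cells, the type this reporter is known to label, also had lower levels in knockout. All 6 (Cartpt, Mmp17, Col25a1, Cdh6, Fstl4 and Mnx1) had a lower estimate in knockout. So did 10 of the 12 ganglion cell markers and 67.4% of all tested genes. The median difference was -1.43 for the 6, -0.35 for the 12 and -0.31 for all tested genes. Together the 6 summed to 534 to 1107 TPM in wild-type libraries and 116 to 308 TPM in knockout libraries. That separation came from Cartpt, the only marker of the 6 whose genotypes did not overlap; without it the sums overlapped, at 173 to 478 TPM for wild-type and 68.8 to 306 TPM for knockout. Of the 6 only Mnx1 was listed at 0, in wild-type 4 and knockout 5. Of 9 tested rod markers 8 had a higher estimate in knockout, though their sums overlapped. The part of these cells in the Mrpl47 difference was not tested.

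**Figure D1:**
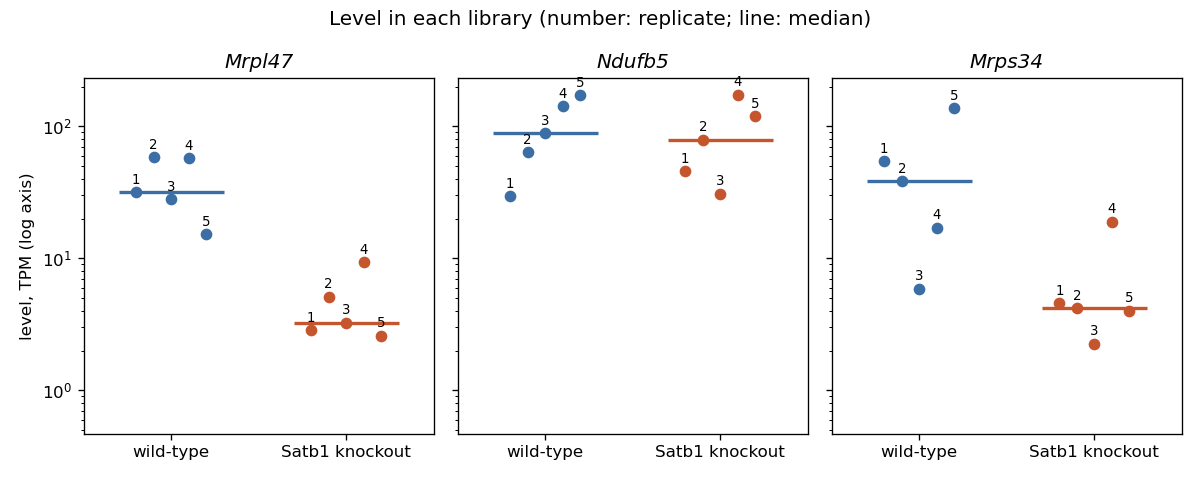
Level in TPM (log axis) of Mrpl47, its neighbour Ndufb5 and the small-subunit gene Mrps34 in each library, with the replicate number above each point and a line at the median of each genotype. For Mrpl47 the highest knockout value, 9.30 TPM, lies below the lowest wild-type value, 15.2 TPM, while the genotypes overlap for Ndufb5 and Mrps34.

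By the RefSeq starts, Ndufb5, which encodes a subunit of respiratory complex I, starts 308 bases from Mrpl47 on the opposite strand. Of the 250 bases printed for Mrpl47, 193 also lie in the 250 bases before the Ndufb5 start (32737063). The annotations disagree on the Mrpl47 start, which is 32736755 in RefSeq and 32737605 in GENCODE. By GENCODE the printed window lies inside Mrpl47, so the start distances and promoter words given for this gene hold for the RefSeq start only. The level of Ndufb5 did not separate the genotypes. Ndufb5 had 29.4, 63.9, 89.3, 142 and 171 TPM in wild-type libraries 1 to 5, compared with 45.7, 79.2, 30.9, 174 and 119 TPM in knockout libraries 1 to 5. The genotypes covered the same range, and the difference was -0.16 (SE 0.65, 95% interval -1.52 to 1.20; two-sided exact permutation p = 0.802 over every division of the libraries; limma, Benjamini-Hochberg adjusted p = 0.992). Its direction was not stable, at 0.21 after median centring and 0.05 after quantile normalization. Expressed as a percentage of Ndufb5, Mrpl47 was 108, 91.5, 31.4, 40.4 and 8.89 across wild-type 1 to 5 and 6.22, 6.45, 10.5, 5.34 and 2.18 in knockout 1 to 5. On this ratio the genotypes overlapped, since wild-type 5 was below knockout 3.

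On its other side Mrpl47 overlaps Actl6a, which encodes an actin-related subunit of chromatin remodelling complexes, by 1577 bases on opposite strands in the GENCODE annotation, and it overlaps Ndufb5 by 616 bases. No source used here gives the counting step or its use of strand, so reads from the overlaps cannot be assigned to either gene. Actl6a measured 11.9, 15.8, 54.9, 1.998 and 2.05 TPM across wild-type 1 to 5, with 19.3, 32.2, 13.5, 11.5 and 2.40 TPM across knockout 1 to 5. Its genotypes overlapped (difference 0.38, SE 0.90, with a change of sign in 3 of 22 alternative fits; limma adjusted p = 0.992), and its order over libraries was not that of Mrpl47.

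The rest of the family was spread on both sides of 0. All 76 members passed the filter of at least 1 TPM in at least 5 libraries, and 43 were lower and 33 higher in knockout (56.6% lower), where 67.4% of all 11744 tested genes were lower. The median difference was -0.20 over the members and -0.31 over all tested genes. Median centring moved the median of all genes by 0.38, and the family then had 29 members lower and 47 higher with a median of 0.17, beside 0.07 for all genes. After quantile normalization the family median was 0.11, beside -0.04. The sign of the family's median therefore rested on the scaling. It was above the median gene under all 3 scalings, but below it without the 4 libraries apart on the first or second component (-0.37 beside -0.31). The middle of the members' differences, from the lower to the upper quartile, ran from -0.66 to 0.40, against -0.73 to 0.16 for all genes.

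Across the whole table limma, adjusted by Benjamini-Hochberg over 11744 genes, called 0 of the 76 members at 0.05, where it called 0% of all genes. Unadjusted, 2 members had a p under 0.05 and both were lower, Mrpl47 and Mrps34, which is 2.63% of the family beside 2.57% of all genes lower (3.31% in either direction). No member was higher at that level, where 0.741% of all genes were. Mrpl47 was the only member whose genotypes did not overlap, beside 0.426% of all genes lower and 0.0766% higher. Since Mrpl47 was chosen from this contrast, nothing is read from its place in these counts, and without it they hold Mrps34 alone. With libraries centred on their medians, 2 members had a lower and 2 a higher level at an unadjusted p under 0.05, beside 1.27% and 1.99% of all genes, and after quantile normalization 2 and 2, beside 1.81% and 1.61%. The 2 higher members in both were Mrpl40 and Mrps23. With library weights 6 were lower and 2 higher, beside 5.79% and 1.31% of all genes. At an unadjusted p under 0.01 only Mrpl47 was left, beside 0.519% of all genes.

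**Figure D2:**
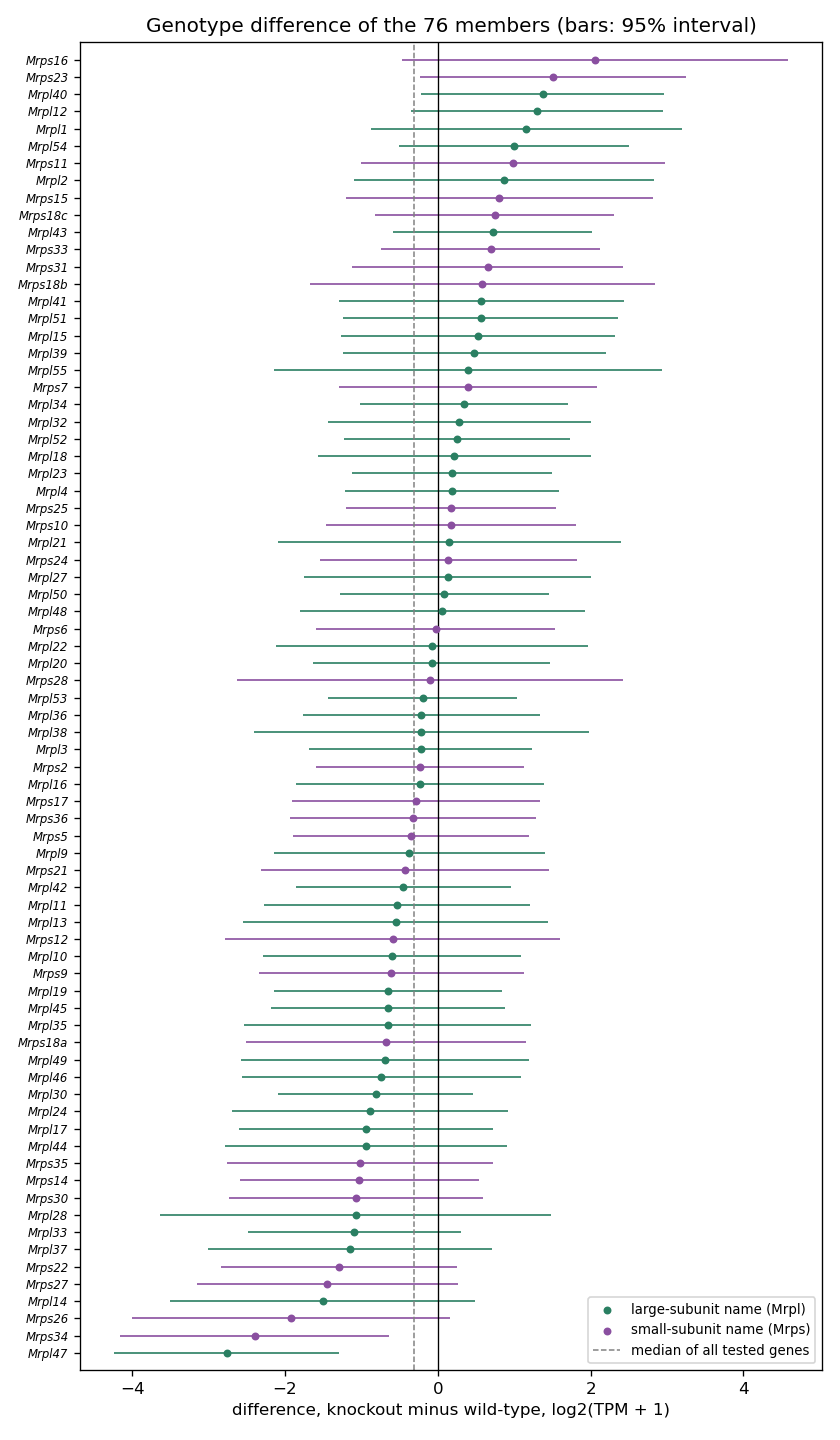
Difference between knockout and wild-type on the log2(TPM + 1) scale for each of the 76 members, with its 95% interval, in order, coloured by subunit name; the dashed line is the median of all tested genes. Mrpl47 is lowest at -2.76, followed by Mrps34 at -2.40, and 74 of the other 75 intervals include 0.

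The precision of single members was limited. The median SE of a member was 0.83 and the median distance from estimate to interval bound was 1.72. Among the 75 members other than Mrpl47, the 95% interval excluded a difference of -2, a 4-fold reduction, for 42 members and a difference of -1, a 2-fold reduction, for 9. For most members a 2-fold reduction thus lay within the interval. The 22 alternative fits reuse the libraries from which Mrpl47 was chosen, so nothing is read from its rank in them. Mrpl47 had the lowest difference of the family in 19 of these fits. The exceptions were the fits without wild-type 3, where Mrps34 was lowest at -2.96 against -2.83, without wild-type 4, where Mrps26 was lowest at -2.96 against -2.58, and with the 3 apart libraries as a term, where Mrps34 was lowest at -2.74 against -2.70.

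In the large subunit, the proteins that ring the exit site are the structural neighbours of the Mrpl47 protein. The 7 others of this group were Mrpl17, Mrpl22, Mrpl23, Mrpl24, Mrpl39, Mrpl44 and Mrpl45, of which 5 were lower and 2 higher, with a median of -0.65. The median was -0.27 after median centring, with 4 lower and 3 higher. Mrpl23, the bacterial-type docking protein at the tunnel mouth, had 69.2, 182, 132, 35.2 and 167 TPM in wild-type libraries 1 to 5, compared with 143, 113, 47.3, 254 and 96.9 TPM in knockout libraries 1 to 5. These ranges were nearly the same (difference 0.19, SE 0.63, 95% interval -1.12 to 1.49). Mrpl45, which anchors the ribosome to the inner membrane, was among the 3 members with the lowest mean level and had means of 6.84 ± 3.61 and 4.51 ± 2.96 TPM (SD, n = 5 each; difference -0.65, SE 0.73). Mrpl24, at 2.87 to 24.4 TPM in knockout and 4.64 to 117 TPM in wild-type, had a difference of -0.89 (SE 0.87), Mrpl17 of -0.94 (SE 0.79) and Mrpl44 of -0.94 (SE 0.89). Mrpl22 at -0.07 (SE 0.98), whose sign changed in 11 of 22 alternative fits, and Mrpl39, at 0.48 (SE 0.82), completed the group. None of the 7 had genotypes that stood apart.

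Other large-subunit proteins were spread on both sides of 0. The 5 stalk proteins, which meet the translation factors, had 3 members lower and 2 higher and a median of -0.19 (0.18 after median centring). Among them Mrpl12, the mitochondrial form of the multi-copy stalk protein, measured 5.68, 20.4, 38.6, 17.5 and 45.1 TPM across wild-type 1 to 5, with 28.7, 123, 12.4, 205 and 41.7 TPM across knockout 1 to 5. Knockout 2 and 4 were high and the other 3 lay within the wild-type range (difference 1.30, SE 0.79). The 5 central protuberance proteins had a median of 0.06 (0.43 after median centring). Of these Mrpl40 had 22.4, 18.5, 8.38, 3.40 and 10.6 TPM in wild-type libraries 1 to 5, compared with 22.1, 53.0, 51.3, 51.3 and 6.43 TPM in knockout libraries 1 to 5. Here knockout 2, 3 and 4 exceeded the whole wild-type range and knockout 5 was low (difference 1.37, SE 0.76). Mrpl1 had a difference of 1.16 (SE 0.98) that followed knockout 3, at 158 TPM, the other knockout libraries being at 2.33 to 18.8 TPM against 1.47 to 17.8 TPM in wild-type. Mrpl14, a core protein at the subunit interface, measured 105, 77.6, 7.06, 123 and 116 TPM across wild-type 1 to 5, with 57.8, 2.28, 5.06, 57.8 and 75.9 TPM across knockout 1 to 5 (difference -1.51, SE 0.95). Apart from wild-type 3, every wild-type library was above every knockout library for this gene. For Mrpl12, Mrpl40, Mrpl1 and Mrpl14 the limma adjusted p was 0.992.

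In the small subunit, the 4 members with the lowest differences all encode proteins with no bacterial counterpart. These were Mrps34, Mrps26, Mrps27 and Mrps22, picked here by their differences, and the 10 genes of that type as a whole had 5 members lower and 5 higher and a median of -0.42 (-0.05 after median centring). The 16 bacterial-type small-subunit genes had 9 lower and 7 higher and a median of -0.06 (0.31 after median centring). Mrps36, whose protein is now known as a component of the 2-oxoglutarate dehydrogenase complex and not of the ribosome, stands in neither class (difference -0.32). Mrps30 and Mrps18a were classed as large-subunit proteins and stand in neither class as well. All 3 are among the 29 small-subunit names. Mrps34 (chromosome 17, 24895116 to 24897502, plus strand), which is needed for the stability of the small subunit, had 54.7, 38.6, 5.89, 17.1 and 138 TPM in wild-type libraries 1 to 5, compared with 4.57, 4.20, 2.26, 19.0 and 4.02 TPM in knockout libraries 1 to 5. Knockout 4 was above wild-type 3 and 4, while in the other 4 the level lay under the whole wild-type range (difference -2.40, SE 0.84, 95% interval -4.15 to -0.64; limma adjusted p = 0.992). Mrps26 measured 40.1, 136, 61.2, 1.93 and 356 TPM across wild-type 1 to 5, with 19.7, 13.2, 4.43, 37.3 and 6.52 TPM across knockout 1 to 5. Every knockout library was below every wild-type library except wild-type 4, which was the lowest of all 10 (difference -1.93, SE 0.997). Without wild-type 4, the difference of Mrps26 was -2.96.

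Mrps27, a pentatricopeptide-repeat protein, had 20.7, 9.72, 19.2, 68.4 and 7.50 TPM in wild-type libraries 1 to 5, compared with 13.5, 5.05, 0.874, 5.53 and 16.3 TPM in knockout libraries 1 to 5, with overlap (difference -1.44, SE 0.82). Mrps22, mutated in a human mitochondrial disease, measured 21.6, 45.2, 29.4, 21.0 and 5.20 TPM across wild-type 1 to 5, with 10.2, 12.3, 7.93, 7.97 and 3.12 TPM across knockout 1 to 5. All knockout libraries were below wild-type 1 to 4, and wild-type 5 was within the knockout range (difference -1.29, SE 0.74). In the other direction Mrps16 had the highest estimate of the family, 2.06 (SE 1.21), from 4.78, 186, 0.866, 0 and 91.0 TPM across wild-type 1 to 5, with 31.3, 18.9, 17.8, 214 and 89.9 TPM across knockout 1 to 5. Whether the listed 0 of wild-type 4 is a failed estimate was not tested. Wild-type 1 and 3 were also below every knockout library, while wild-type 2 and 5 were in the range of knockout 4 and 5. Mrps23 had 29.7, 3.42, 11.9, 0.333 and 12.6 TPM in wild-type libraries 1 to 5, compared with 27.7, 26.4, 9.68, 27.4 and 23.6 TPM in knockout libraries 1 to 5 (difference 1.51, SE 0.83). The limma adjusted p was 0.992 for each of these genes.

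With wild-type 5 and knockout 4 and 5 left out, which leaves 4 wild-type and 3 knockout libraries, 5 members had genotypes that did not overlap, all lower: Mrpl47, Mrps34, Mrps22, Mrps5 and Mrps12. In those 7 libraries the share was 4.49% of all tested genes lower and 1.11% higher. At an unadjusted p under 0.05 there were then 5 members lower and 1 higher, beside 3.19% and 1.18% of all genes, and limma called 0 members after adjustment, where it called 0% of all genes. Mrps5 was at 10.9 to 21.1 TPM in wild-type 1 to 4 and 6.19 to 10.4 TPM in knockout 1 to 3. Its levels in the 3 libraries left out were 5.22 TPM in wild-type 5 and 31.4 and 4.51 TPM in knockout 4 and 5. For Mrps12, a decoding-site protein, the 3 libraries left out held 74.4, 130 and 417 TPM, and the 2 in knockout were its highest of all 10. With wild-type 4 left out as well, 10 members had genotypes apart and lower and 1 (Mrpl39) apart and higher, beside 10.8% and 2.06% of all genes. At an unadjusted p under 0.05, those 6 libraries gave 6 members lower and 0 higher, beside 4.79% and 1.12% of all genes. With all 10 libraries and the 3 apart on the first component as a term, 4 were lower and 1 higher, beside 3.29% and 0.962%. Which member stood beside Mrpl47 thus changed with the libraries used.

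Transcript levels were very unequal between members. Mean levels over the 10 libraries ran from 5.56 TPM for Mrps14 to 401 TPM for Mrpl34, a ratio of 72.2, with a median of 25.8 TPM. The 5 highest members, Mrpl34, Mrpl30, Mrps15, Mrpl52 and Mrpl20, made up 34.9% of the summed level of the family. Mrpl34 spanned 159 to 658 TPM (wild-type) and 139 to 1399 TPM (knockout), and Mrpl30 spanned 159 to 891 and 96.1 to 399 TPM. Mrpl52 was at 37.5 to 554 and 118 to 915 TPM, and Mrpl20 at 59.0 to 471 and 41.8 to 356 TPM. At the low end Mrps14 was at 2.43 to 12.2 and 0.454 to 8.01 TPM and Mrpl15 at 0.109 to 17.4 and 1.32 to 14.4 TPM. For each of these 6 genes the genotypes overlapped.

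**Figure D3:**
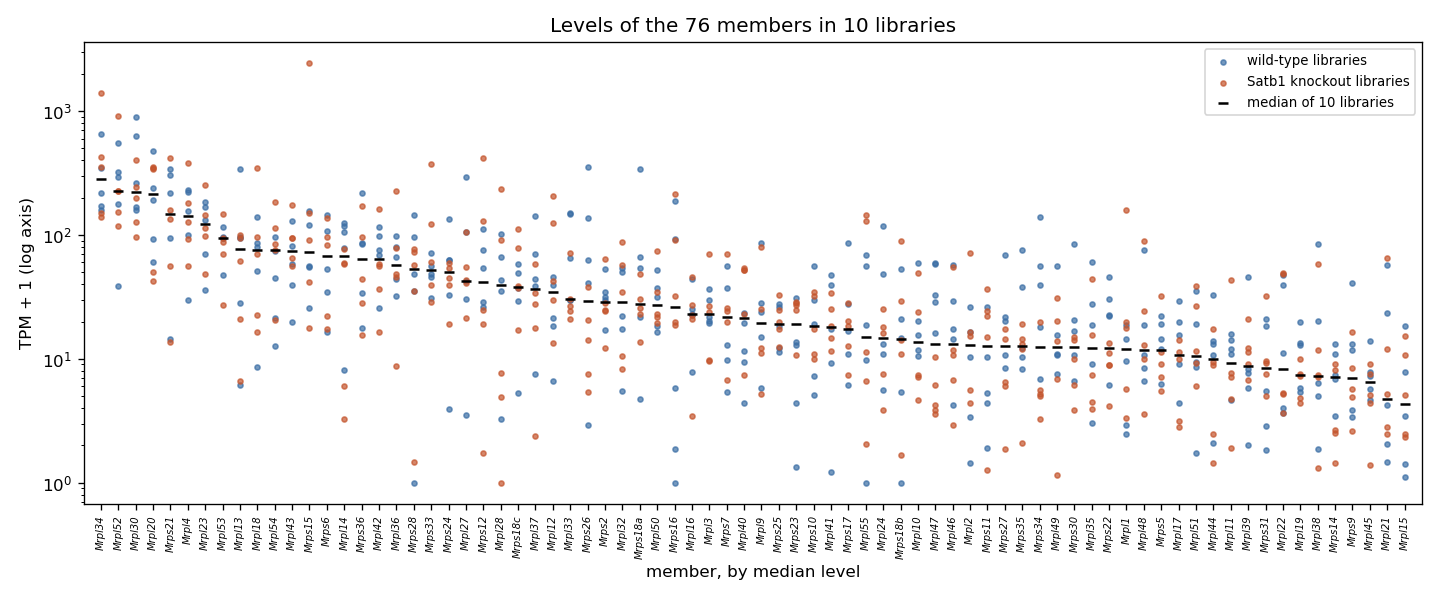
TPM + 1 (log axis) of each of the 76 members in the 5 wild-type and 5 knockout libraries, ordered by the median of the 10 libraries (black bar). Points of both genotypes mix for nearly every member, and single libraries lie far from the others, such as Mrps15 at 2426 TPM in knockout 1.

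Single members varied widely between libraries of 1 genotype. The spread within a genotype (pooled SD of log2(TPM + 1)) had a median of 1.32 over the members and 1.20 over all tested genes. Across the 10 libraries a member's highest value was 3.05 to 574 times its lowest, with a median of 29.0, over the 71 members with no listed 0. Mrps25 was the steadiest, with a pooled SD of 0.57 and a level of 10.4 to 31.7 TPM in all libraries, followed by Mrpl19 at 0.67 and Mrpl47 at 0.71. Since Mrpl47 was chosen for its genotype difference in these libraries, nothing is read from its place in this order. Mrpl28, Mrps28 and Mrps16 were the least steady at 2.65, 2.64 and 2.62, and each was listed at 0 in 1 library. In all, 5 of 760 member values were listed at 0, of which 3 were in wild-type 4, and 21 members were under 1 TPM in at least 1 library. Wild-type 4 and knockout 1 each held the lowest value of 18 members, and knockout 4 held the highest value of 14.

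The summed level of the family overlapped between genotypes. Its total was 4117, 4169, 4340, 4876 and 3966 TPM across wild-type 1 to 5, with 5454, 4196, 3840, 6170 and 3386 TPM across knockout 1 to 5. The knockout totals lay on both sides of the wild-type totals, the wild-type mean being 4294 ± 352 TPM and the knockout mean 4609 ± 1163 TPM (SD over 5 libraries each). The knockout mean was raised by Mrps15, a bacterial-type small-subunit protein, which was at 2426 TPM in knockout 1 and at 16.7 to 156 TPM in the other 9 libraries. Without Mrps15 the means were 4212 ± 380 and 4065 ± 1179 TPM. Large-subunit names summed to 2962 ± 730 and 3003 ± 870 TPM and small-subunit names to 1332 ± 449 and 1607 ± 974 TPM. A lower share of a transcript in bulk RNA can come from fewer cells that hold it or from less of it per cell, and these cannot be told apart.

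**Figure D4:**
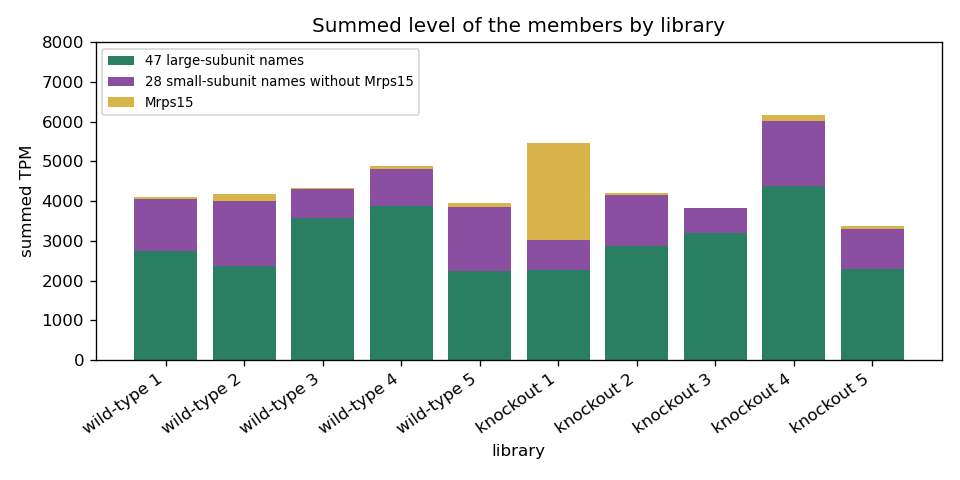
Summed TPM of the members in each library, split into large-subunit names, small-subunit names without Mrps15, and Mrps15 alone. Totals lie between 3386 and 6170 TPM, and Mrps15 accounts for 2426 TPM in knockout 1.

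Close pairs of divergent genes were common in the family. Of 67 members with a RefSeq protein-coding promoter entry, 24 (35.8%) had the start of another protein-coding gene within 1000 bases on the opposite strand, compared with 9.61% of 17492 genes, and Mrpl46 and Mrps11 were partners of each other. Of the 20 pairs in which both genes were tested, 10 had differences of the same sign. The absolute gap between the differences of the genes in a pair had a median of 0.56. The gap of Mrpl47 and Ndufb5 was 2.60, and the next was 1.72, for Mrpl46 (-0.74) and Mrps11 (0.98). Mrpl47 was chosen for its difference (-2.76, with Ndufb5 at -0.16). The place of its pair was thus largely set by that choice, and nothing is read from it. Mrps27 (-1.44) and Ptcd2 (-1.75), a gene for another mitochondrial pentatricopeptide-repeat protein that starts 108 bases away, both had negative estimates. Ptcd2 measured 138, 95.2, 235, 73.1 and 30.0 TPM across wild-type 1 to 5, with 111, 114, 8.74, 11.98 and 9.27 TPM across knockout 1 to 5. Its genotypes overlapped through knockout 1 and 2.

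**Figure D5:**
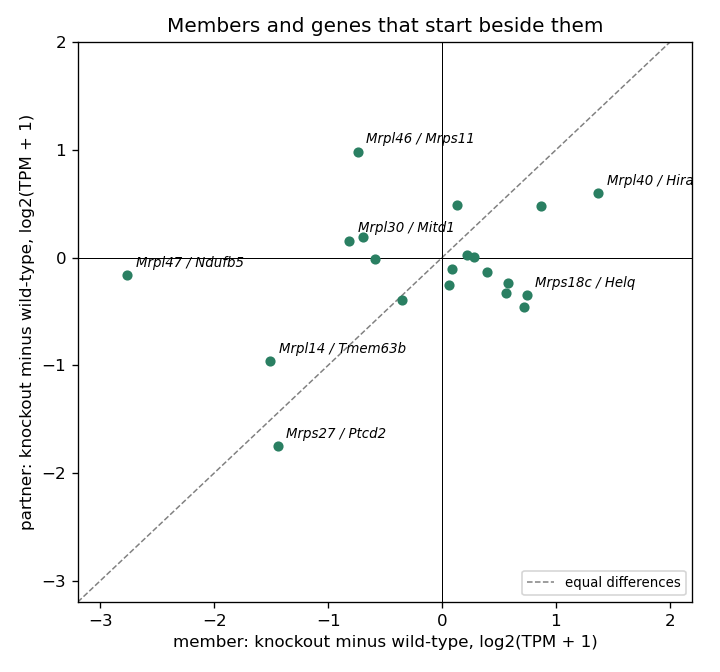
Genotype difference (knockout minus wild-type, log2(TPM + 1)) of a member in each of 20 pairs, on the horizontal axis, against that of the gene that starts within 1000 bases on the opposite strand. Mrpl47 (-2.76) with Ndufb5 (-0.16) is the point farthest from the dashed line of equal differences, and Mrps27 with Ptcd2 lies near it. Mrpl47 was chosen for its difference, so nothing is read from the place of its point.

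Words bound by factors known to serve mitochondrial genes were found in a larger share of member promoters than of all promoters. In the 300 bases from 250 before to 50 after the start, both strands searched, CCGGAAG (ETS family) was found in 24 of 67 members (35.8%) and in 12.9% of all genes. The consensus of NRF1, a regulator of respiratory genes, was found in 12 members (17.9%) and in 7.17% of all genes, and AAGATGGC (YY1) in 12 members (17.9%) and in 3.57% of all genes. In all 41 members had at least 1 of the 3 words, and 7 had 2 or more, among them Mrps26 and Mrps27. Mrpl47 held none of the 3, like 25 other members of the 67. In the 250 bases before the start alone the YY1 word was left in 4 members, so most of its matches included bases after the start. No promoter entry was matched for Mrpl4, Mrpl13, Mrpl15, Mrpl19, Mrpl38, Mrpl54, Mrps28, Mrps34 and Mrps35.

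Mitoribosomal proteins under other symbols and the genes that serve the ribosome also held 0 genes called by limma after adjustment, as for 0% of all genes; at an unadjusted p under 0.05 they held 3 of the 58 tested genes (5.17%, beside 3.31% of all genes), Chchd1, Gtpbp5 and Rbfa. Of 7 mitoribosomal genes with other names 5 were lower and 2 higher (median -0.41, or -0.04 after median centring). Chchd1, a small-subunit protein with a twin-cysteine fold, had 56.8, 80.7, 62.9, 104 and 49.1 TPM in wild-type libraries 1 to 5, compared with 0, 13.9, 27.96, 250 and 4.73 TPM in knockout libraries 1 to 5. Thus 4 knockout libraries were below every wild-type library and knockout 4 was above all of them (difference -2.26, SE 1.02; limma adjusted p = 0.992). Mrp63 had a difference of -1.005 (SE 0.81). Among mitochondrial translation factors 11 of 12 were lower, with a median of -0.74 (8 of 12 lower and -0.37 after median centring), with the elongation factor gene Gfm2 at 17.0 ± 14.3 and 5.21 ± 3.76 TPM and the insertase gene Oxa1l at 65.9 ± 41.1 and 31.6 ± 9.40 TPM in wild-type and knockout (SD, n = 5 each). Among mitochondrial tRNA synthetases 11 of 15 were lower, with a median of -0.63 (9 of 15 and -0.25 after median centring). Beside these lists, 67.4% of all tested genes were lower, with a median of -0.31 (0.07 after median centring). The lowest p values of the synthetases belonged to Yars2 (-1.36, SE 0.80) and Cars2 (1.56, SE 0.94).

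Assembly and rRNA-modification factors of the mitoribosome had 7 of 17 tested members lower and 10 higher, with a median of 0.17 where that of all genes was -0.31. After median centring 3 were lower and 14 higher (median 0.54, beside 0.07), and with wild-type 5 and knockout 4 and 5 left out 6 and 11 (0.86, beside -0.22). Rbfa, which helps mature the small-subunit RNA, measured 2.26, 13.1, 0.349, 21.9 and 30.5 TPM across wild-type 1 to 5, with 46.3, 8.27, 23.0, 207 and 75.7 TPM across knockout 1 to 5. Only knockout 2 and 3 were within the wild-type range (difference 2.38, SE 0.96; limma adjusted p = 0.992). Gtpbp5, a large-subunit assembly GTPase, had 4.09, 9.85, 8.87, 9.31 and 6.43 TPM in wild-type libraries 1 to 5, compared with 0.661, 1.69, 4.61, 4.48 and 0.172 TPM in knockout libraries 1 to 5. Its genotypes overlapped by a single value, wild-type 1 (difference -1.60, SE 0.70; limma adjusted p = 0.992). The 7 tested genes of mitochondrial transcription and DNA replication had 4 lower and 3 higher (median -0.30, or 0.08 after median centring), with Mterfd3 at 1.44 (SE 0.84) and Mterf at -0.75 (SE 0.61). The 13 mitochondrially encoded mRNAs, which the ribosome translates, and the 2 rRNAs, on which it is built, were looked up by their mt- symbols. Of these, 0 had an entry under that symbol in the deposited table, so they were not analysed here.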

How the data were processed

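Single-end RNA sequencing libraries of sorted Hb9-GFP ganglion cells, 5 wild-type and 5 Satb1-/-, were described by 1 deposited table of log10(TPM + 1) values made by the authors, with 23746 entries and 1 column per library. The base and offset were read from the values, since back-transformed TPM summed to 1000000 in every library. Per the submitters' processing notes, TopHat2 2.0.10, Cufflinks and build mm10 were used; no source used here gives the annotation, counting step, filters or strand. Per the labels' protocols the cDNA was amplified, which can add variation between libraries. TPM keeps no depth, so no interval for counting error was computed.

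Entries with a number for a symbol (26, holding 0.0438% to 0.198% of the TPM) were left out and 240 repeated symbols summed, leaving 23258. The 11744 genes that reached 1 TPM in 5 or more libraries entered limma 3.58.1 (R 4.3.3) on log2(TPM + 1). Genotype was its sole term, the variance followed the mean, and p-values were adjusted by Benjamini-Hochberg over all 11744 at 0.05; the fit was tested on simulated data. By the series' design text the replicates of a genotype came from different litters. Members and lists were chosen with earlier results of these data known. The genes described are Mrpl47 and its neighbours, the 5 lowest and 5 highest differences, members whose genotypes do not overlap, the 5 highest and 3 lowest means, the exit-site proteins and up to 2 genes of the lowest p per pathway list. Those named for their spread, for the libraries left out or for a neighbouring gene (Mrps25, Mrpl19, Mrpl28, Mrps28, Mrps5, Mrps12, Mrpl46, Mrps11 and Ptcd2) were added after their values were seen. Positions are from GENCODE M21 (GRCm38) and promoters from RefSeq (GRCm38.p6), of which 67 of 76 members were matched by symbol; 1 neighbouring gene (Twnk) was found in the table under an older symbol listed by RefSeq. Alternatives covered the pseudocount, filter, scaling, replicate block, library weights, variance model, thresholds and each library left out; fits without the libraries that stood apart, or with them as a term, were added after the data had been seen.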

Additional observations from a re-analysis of the deposited data

Results flagged for a closer look

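Of 74 groups of 5 values (37 genes described above in 2 genotypes, on the log2(TPM + 1) scale), 2 held a library whose gap to its nearest neighbour exceeded the critical share of 0.71 of the group's range; chance gives about 5% of groups. Mrpl14 was at 7.06 TPM in wild-type 3, with the other 4 wild-type libraries at 77.6 to 123 TPM. Mrps23 was at 9.68 TPM in knockout 3, with the other 4 knockout libraries at 23.6 to 27.7 TPM.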

How the results depend on the processing

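No member passed limma's adjusted threshold in any of the 22 alternative fits, nor at 0.1. At 0.05 the share of all genes was 0% in the fit described and without wild-type 5 and knockout 4 and 5. The share in the other fits is not given here. At 0.1 the share was not 0% in the fit described, where the smallest limma adjusted p of all genes was 0.0654. The number of members at an unadjusted p under 0.05, 2 in the fit described, was 4 after median centring (2 lower and 2 higher, beside 1.27% and 1.99% of all genes), 4 after quantile normalization, 8 with library weights, 6 without wild-type 5 and knockout 4 and 5, 5 with those libraries as a term (beside 3.29% of all genes lower and 0.962% higher), 6 without the 4 libraries apart on the first or second component (4.79% and 1.12%) and 1 at a p under 0.01 (0.519% in either direction). It was 2 to 4 when each library was left out, beside 2.44% to 7.20% of all genes; the value of 4 came without wild-type 5 (7.20%) or knockout 5 (2.55%). With a replicate block it was 4, beside 5.89% of all genes lower and 1.18% higher. The labels do not say that equal numbers share a litter, the correlations of same-numbered deviations ran from -0.032 to 0.364, and only replicates 1 and 2 matched their own number best, so the numbers were not taken as pairs. Members whose genotypes did not overlap numbered 1 to 2 with each library left out (2 without wild-type 3, 4 or 5 or knockout 4), beside 0.749% to 2.81% of all genes in either direction. They numbered 5 without the 3 apart libraries (4.49% of all genes lower and 1.11% higher) and 11 without the 4 (10.8% and 2.06%). The family median ran from -0.37 to 0.17 over the alternatives and the Mrpl47 difference from -3.199 to -1.64, the last with a pseudocount of 10 TPM. The difference in summed level, 316 TPM higher in knockout, ran from -74.6 to 621 TPM with each library left out. In the 250 bases before the start alone, the ETS word was in 25.4% and the YY1 word in 5.97% of members; the shorter window leaves out matches after the start. The unknown depth limits the low members most.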

Other observations

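The summed level of the 19 assembly and rRNA-modification factors in the table was higher in every knockout library than in every wild-type library, from 183 to 313 TPM (wild-type) and from 335 to 563 TPM (knockout). Without Rbfa the ranges overlapped, at 163 to 310 and 259 to 362 TPM. The full separation of the sums thus needed Rbfa. Rbfa by itself did not separate the genotypes, and none of the 17 tested factors had genotypes that stood apart. Gtpbp10 was at 126 TPM in knockout 2 and at most 9.15 TPM in wild-type. Mpv17l2 was at 131 TPM in knockout 3 and at most 52.5 TPM in wild-type. This pattern was noticed after the values were seen and has no test.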
